A study of Mus musculus with 20 samples.

Results

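The cytosolic ribosomal protein genes were followed through 4 bulk RNA-seq comparisons of mouse TCRαβ+CD8αα+ intraepithelial lymphocytes (IELs), T cells that lie between the epithelial cells of the small intestine. Members were chosen by symbol, as Rpl or Rps followed by a number, together with Rplp0, Rplp1, Rplp2, Rpsa and Fau. This gave 89 of the 25933 genes listed over all tables. The Tcf7 tables listed all 89, and the other tables listed 83. Of the 89, the GENCODE vM21 annotation of GRCm38 types 83 as protein coding, 5 as processed pseudogenes (Rpl32l, Rpl6l, Rps12l1, Rps3a2 and Rps3a3) and 1 as a transcribed processed pseudogene (Rps4l). A separate set, the 78 genes of mitochondrial ribosomal proteins, was kept for comparison.

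Each cytosolic ribosome is built from a small subunit, which reads the mRNA, and a large subunit, which joins the amino acids. Nearly every subunit protein is encoded by 1 gene and goes into every ribosome, so cells make these mRNAs in large and similar amounts, and their translation is controlled together through a pyrimidine-rich stretch at the mRNA's start, the terminal oligopyrimidine (TOP) motif. In T cells, activation through the antigen receptor and the factor MYC drive the building of new ribosomes, while resting cells keep it low. A few members have "like" copies (Rpl22l1, Rps27l, Rpl7l1, Rpl39l, Rpl3l and Rps4l), whose products resemble a standard ribosomal protein.

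The sorted cells came from Bcl6-RFP/RFP mice, in which a red fluorescent protein (RFP) reports Bcl6. RFP+CD160+ cells gave 3 libraries and RFP−CD160− cells gave 3. Whole TCRαβ+CD8αα+ IELs were taken from Bcl6fl/fl Cd8cre, Prdm1fl/fl Cd8cre and Tcf7fl/fl Cd8cre mice (knockouts, 2 libraries each) and from Bcl6fl/fl, Prdm1fl/fl and Tcf7fl/fl littermates (2 libraries each). All mice were at steady state, and the labels give no age or sex. The labels name Cd8cre in each knockout genotype and in no littermate genotype, so an effect of Cd8cre itself and the loss of the floxed gene cannot be told apart. Another 2 libraries, titled LI, carry the Bcl6-RFP/RFP genotype and the small intestine as tissue, but no group, so their values are given beside the sorted cells without a test. Nothing in the labels says that the libraries of a group came from separate animals, so p-values measure the spread between libraries.

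Depth, recovered from the values, came to about 14525000 to 16880000 reads in RFP+CD160+ libraries, 16500000 to 17365000 in RFP−CD160− libraries and 22505000 and 29955000 in the LI libraries. The Bcl6 knockouts had 22540000 and 22645000 reads and their littermates 22990000 and 22075000. Over the Prdm1 and Tcf7 experiments, depth ran from 30139000 to 48206400 reads. Values are FPKM (reads per gene length and depth) in the sorted cells and the Bcl6 experiment, and size-factor-scaled reads, with no gene length, in the Prdm1 and Tcf7 experiments. Prdm1 was at 640 and 362 scaled reads in its knockouts, against 6092 and 5117 in littermates, and Tcf7 at 7757 and 7993 in its knockouts, against 15430.3 and 15606 in littermates. Bcl6 was at 0.550 and 0.638 FPKM in its knockouts, against 0.772 and 0.735 FPKM in littermates, too low to check those labels well. The T cell marker Cd3e was at 157 to 175 FPKM in RFP+CD160+ cells and 224 to 246 FPKM in RFP−CD160− cells.

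Ribosomal protein mRNAs took up a larger part of the RFP+CD160+ libraries than of the RFP−CD160− libraries. Over all members together, they held 11.9, 11.7 and 11.3% of all summed FPKM in RFP+CD160+ libraries, against 8.63, 8.39 and 8.00% in RFP−CD160− libraries. The groups did not overlap, and the means differed by 3.29 percentage points. The most abundant cytotoxic transcripts differed in the other direction. Those of 2 granzyme genes, Gzma and Gzmb, held 0.0793 to 0.180% of summed FPKM in RFP+CD160+ libraries, against 7.32 to 8.27% in RFP−CD160− libraries. With both granzymes left out of the total, the members held 11.9, 11.7 and 11.3% in RFP+CD160+ libraries, against 9.40, 9.06 and 8.65% in RFP−CD160− libraries, a difference of 2.60 percentage points. In bulk samples such as these, fewer cells that carry a transcript and less of it per cell cannot be told apart.

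**Figure D1:**
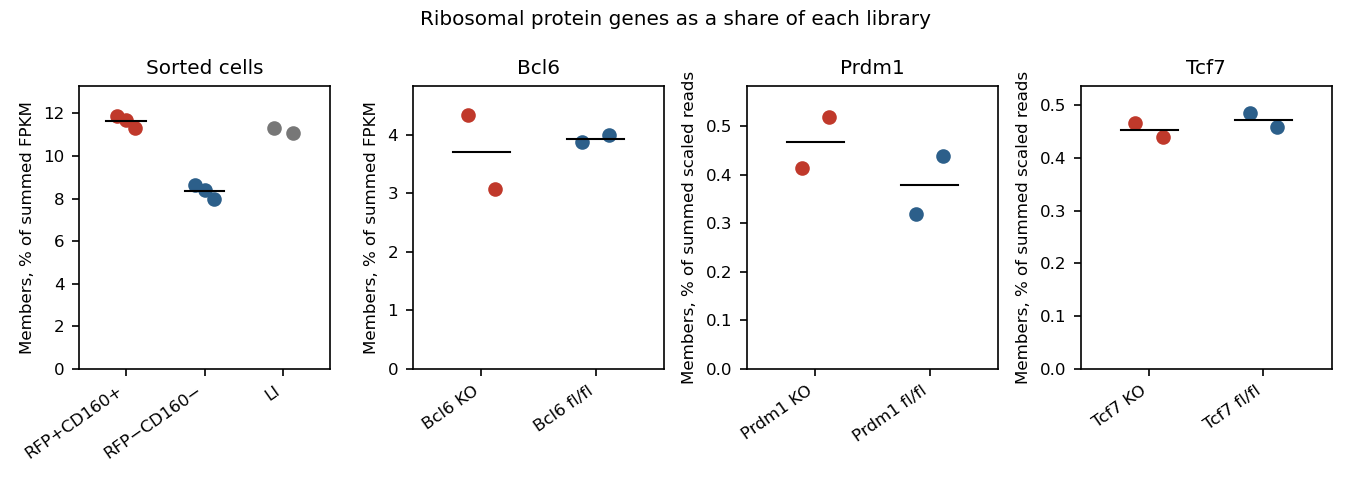
Percent of each library's summed values held by all ribosomal protein genes (y axis, linear from 0), with 1 point per library and a black line at the mean of each labelled group; FPKM was summed for the sorted cells and the Bcl6 experiment and scaled reads for the Prdm1 and Tcf7 experiments. The RFP+CD160+ libraries sit between 11.3 and 11.9%, all above the RFP−CD160− libraries at 8.00 to 8.63%, while each knockout overlaps its littermates. Members typed as pseudogenes are included where listed. Shares of FPKM and of scaled reads cannot be compared with each other.

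Of the 83 members listed for the sorted cells, 81 passed the filter of 1 FPKM in at least 3 libraries, and Rpl32l and Rpl39l did not. Of these 81, limma called 60 higher and 1 lower in RFP+CD160+ cells at an adjusted p under 0.05, and 20 were not called. Over all 9717 genes tested, 38% were called, 16.4% higher and 21.6% lower. Every RFP+CD160+ library lay above every RFP−CD160− library for 63 members and below for 2, where 23.4% and 28.5% of all genes did so. The median log2 difference over the 81 members was 0.31, with quartiles of 0.23 and 0.41, against a median of -0.03 over all genes tested. The difference was positive for 79 of the 81, where 45.8% of all genes were positive. Giving each library the same total moved the median gene up by 0.14 (log2), and turned the calls over all genes into 3312 higher and 1164 lower, from 1591 higher and 2098 lower as deposited. Relative to the median gene, the members' median stood at 0.35 on that scale and 0.34 as deposited, and 78 members were then called higher and 0 lower.

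**Figure D2:**
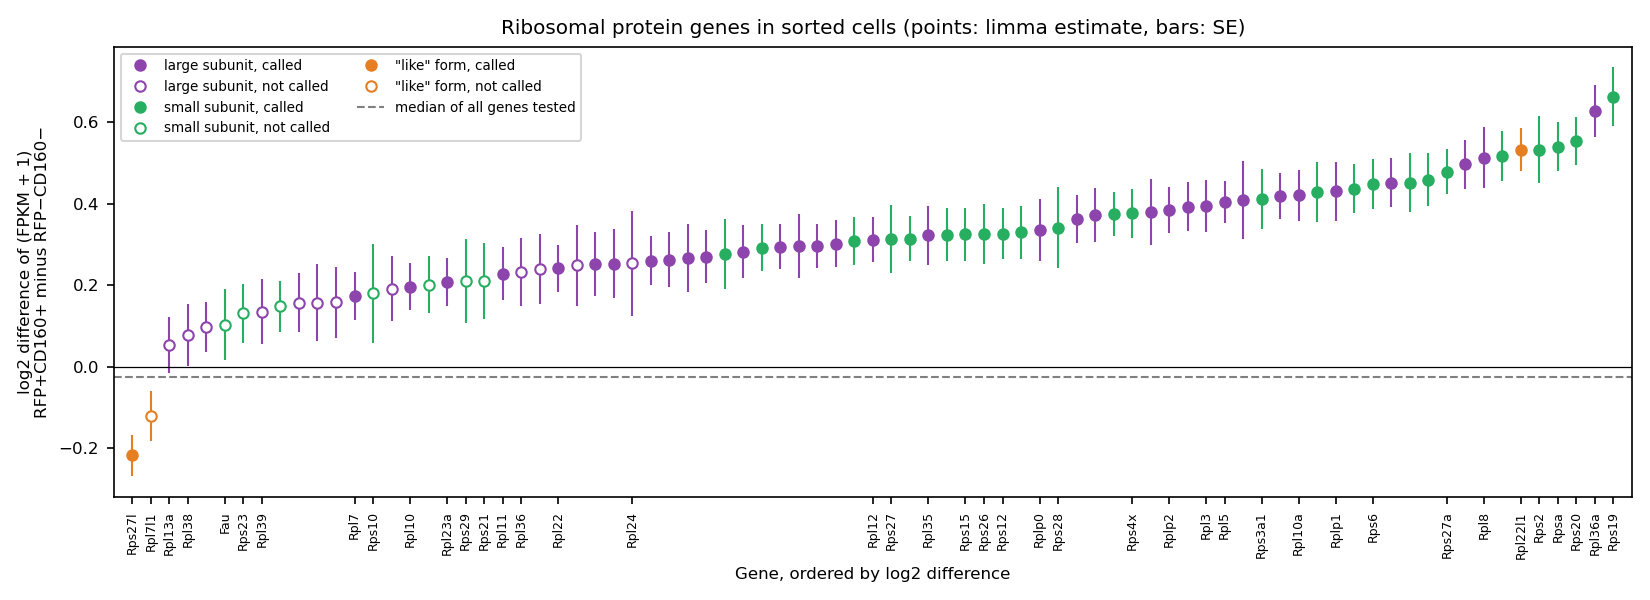
Log2 difference of (FPKM + 1), RFP+CD160+ minus RFP−CD160−, for the 81 members tested, in order of size, with bars of 1 SE from limma over 3 libraries per group; filled points were called, the dashed line is the median of all genes tested, and only members named in the text carry a label. The members run from -0.22 for Rps27l to 0.66 for Rps19, and apart from Rps27l and Rpl7l1 all lie above 0.

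Genes of both subunits were called. Among the 46 standard genes of the large subunit, 34 were called higher and 0 lower, with a median log2 difference of 0.28. Among the 32 of the small subunit, 25 were called higher and 0 lower, with a median of 0.33. Whether the subunits differ from each other was not tested.

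Large subunit genes were called in every structural group examined. The P stalk, the arm that recruits elongation factors, had 3 of 3 genes higher. Its gene Rplp1 had the highest FPKM of any member, at 2638, 2541 and 2532 FPKM in RFP+CD160+ libraries, against 1937, 1945 and 1839 FPKM in RFP−CD160− libraries. The stalk base gene Rplp0 had 723, 699 and 705 FPKM in RFP+CD160+ libraries, against 621, 549 and 519.7 FPKM in RFP−CD160− libraries (log2 difference 0.34 ± 0.08 SE, limma adjusted p = 0.010). Neither gene's groups overlapped. Rpl5 and Rpl11 encode the proteins that bind ribosomal RNA of the central protuberance and that can hold back MDM2, the inhibitor of p53. Rpl5 averaged 206 ± 2.501 FPKM in RFP+CD160+ cells and 155 ± 7.01 FPKM in RFP−CD160− cells (SD, n = 3 each), a log2 difference of 0.40 (limma adjusted p = 6.3e-04). Rpl11 averaged 205 ± 7.57 FPKM in RFP+CD160+ cells and 175 ± 12.1 FPKM in RFP−CD160− cells (SD, n = 3 each, log2 difference 0.23, limma adjusted p = 0.024). The Rpl11 call was lost without any 1 library other than RFP−CD160− replicate 1, at adjusted p from 0.054 to 0.087. Around the exit tunnel, through which the new protein chain leaves, 7 of 9 genes were higher. Rpl39 of that group was not called, at 205, 199 and 176 FPKM in RFP+CD160+ libraries, against 185, 183 and 161 FPKM in RFP−CD160− libraries, which overlapped (limma adjusted p = 0.21). It was called higher when libraries were given the same total (log2 difference 0.29, limma adjusted p = 0.012), and with the members and granzymes left out of it (0.22, limma adjusted p = 0.048). The median gene stood at 0.12 and 0.05 on those scales.

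The largest difference in the large subunit was that of Rpl36a, on the X chromosome (chrX:134585654-134588062, plus strand, GRCm38), whose protein lies near the site from which emptied tRNAs leave. It had 127, 123 and 113 FPKM in RFP+CD160+ libraries, against 79.9, 80.7 and 72.6 FPKM in RFP−CD160− libraries. The groups stood well apart, with a log2 difference of 0.63 ± 0.06 (SE, limma adjusted p = 1.8e-04). Rpl3, part of the peptide-joining centre, averaged 324 ± 15.3 FPKM in RFP+CD160+ cells and 246 ± 13.6 FPKM in RFP−CD160− cells (SD, n = 3 each, log2 difference 0.39, limma adjusted p = 0.0020). Rpl10, which completes the large subunit late in its assembly, averaged 434 ± 3.92 FPKM in RFP+CD160+ cells and 379 ± 18.4 FPKM in RFP−CD160− cells (SD, n = 3 each, log2 difference 0.20, limma adjusted p = 0.029). The Rpl10 call was lost under quantile normalization (log2 difference 0.063, adjusted p = 0.37) and without any 1 library other than RFP−CD160− replicate 1 (adjusted p from 0.057 to 0.11). At the other end stood Rpl13a, known also for silencing inflammatory mRNAs once it leaves the ribosome. Rpl13a had 13.5, 13.0 and 14.4 FPKM in RFP+CD160+ libraries, against 14.3, 12.4 and 12.7 FPKM in RFP−CD160− libraries, which overlapped (log2 difference 0.05, limma adjusted p = 0.58). It was called higher when libraries were given the same total (log2 difference 0.20, limma adjusted p = 0.027), where the median gene stood at 0.12.

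In the small subunit, 12 of 14 genes of its head and decoding region were higher. Rps19 (chr7:24884371-24889806, plus strand, GRCm38) encodes a head protein and is the gene most often mutated in Diamond-Blackfan anaemia, an inherited failure of red cell production in humans. Rps19 had 81.6, 78.7 and 79.4 FPKM in RFP+CD160+ libraries, against 55.5, 49.8 and 45.5 FPKM in RFP−CD160− libraries. This was the largest difference of any member (log2 difference 0.66 ± 0.07 SE, limma adjusted p = 2.5e-04). Of 19 members whose human counterparts are linked to that disease, 14 were higher and 0 lower, with a median log2 difference of 0.32, close to that of all members.

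Rps20, another head protein gene (chr4:3831334-3835665, minus strand), had 115, 111 and 109 FPKM in RFP+CD160+ libraries, against 81.0, 75.1 and 71.6 FPKM in RFP−CD160− libraries (log2 difference 0.55 ± 0.06 SE, limma adjusted p = 2.1e-04). Rpsa (chr9:120127689-120132369, plus strand), whose product doubles as a laminin receptor, had 413, 398 and 382 FPKM in RFP+CD160+ libraries, against 286, 273 and 260.4 FPKM in RFP−CD160− libraries (log2 difference 0.54 ± 0.06 SE, limma adjusted p = 2.8e-04). Rps2 (chr17:24718116-24721929, plus strand), which lines the entry of the mRNA channel, had 401, 375 and 403 FPKM in RFP+CD160+ libraries, against 303, 267 and 246 FPKM in RFP−CD160− libraries (log2 difference 0.53 ± 0.08 SE, limma adjusted p = 0.0015). None of these genes had overlapping groups. Rps6, the protein phosphorylated by S6 kinase after growth signals, averaged 547 ± 3.09 FPKM in RFP+CD160+ cells and 401 ± 23.9 FPKM in RFP−CD160− cells (SD, n = 3 each), and was called higher too (log2 difference 0.45, limma adjusted p = 8.4e-04). Rps4x averaged 485 ± 23.4 FPKM in RFP+CD160+ cells and 373 ± 9.68 FPKM in RFP−CD160− cells (SD, n = 3 each, log2 difference 0.38, limma adjusted p = 0.0018).

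Rps27a and Fau are made as fusions, with ubiquitin and with a ubiquitin-like protein at the front. Rps27a averaged 197 ± 4.08 FPKM in RFP+CD160+ cells and 141 ± 7.52 FPKM in RFP−CD160− cells (SD, n = 3 each, log2 difference 0.48, limma adjusted p = 3.5e-04). Fau had 549, 541 and 561 FPKM in RFP+CD160+ libraries, against 578, 505 and 459 FPKM in RFP−CD160− libraries. The highest RFP−CD160− library lay above every RFP+CD160+ library, and Fau was not called (log2 difference 0.10, limma adjusted p = 0.38). It was called higher when libraries were given the same total (log2 difference 0.26, limma adjusted p = 0.017), where the median gene stood at 0.12. Fau was also called higher without RFP−CD160− replicate 1 (0.19, limma adjusted p = 0.045).

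Among the "like" forms, Rpl22l1 was called higher, Rps27l was called lower and Rpl7l1 was not called. Rpl22l1 (chr3:28805436-28807424, plus strand) is a copy of Rpl22, and in mice RPL22 is needed for αβ T cell development and holds Rpl22l1 down. Rpl22l1 had 50.5, 46.0 and 49.2 FPKM in RFP+CD160+ libraries, against 32.6, 34.1 and 33.0 FPKM in RFP−CD160− libraries (log2 difference 0.53 ± 0.05 SE, limma adjusted p = 1.5e-04). Rpl22 had 87.2, 88.4 and 81.9 FPKM in RFP+CD160+ libraries, against 76.9, 70.7 and 69.7 FPKM in RFP−CD160− libraries (log2 difference 0.24 ± 0.06 SE, limma adjusted p = 0.012). Both genes were higher in RFP+CD160+ cells without overlap. The ratio of Rpl22l1 to Rpl22 was 0.580, 0.520 and 0.600 in RFP+CD160+ libraries, against 0.424, 0.483 and 0.473 in RFP−CD160− libraries. The log2 ratio differed by 0.29, with p = 0.10 in an exact two-sided permutation test, the smallest that 3 against 3 libraries can give, and 0.425 after Benjamini-Hochberg adjustment over the 17 paralog ratios computed.

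Rps27l (chr9:66946086-66949516, plus strand), a copy of Rps27 that p53 switches on, was the 1 member called lower. It had 19.3, 18.6 and 18.6 FPKM in RFP+CD160+ libraries, against 23.0, 21.8 and 21.4 FPKM in RFP−CD160− libraries (log2 difference -0.22 ± 0.05 SE, limma adjusted p = 0.011). The difference stayed negative when libraries were given the same total, but the call was lost (adjusted p = 0.30, and 0.057 with the members and granzymes left out of that total). Rps27 itself had 858, 824 and 713 FPKM in RFP+CD160+ libraries, against 649, 663 and 609 FPKM in RFP−CD160− libraries, and was called higher (log2 difference 0.31 ± 0.08 SE, limma adjusted p = 0.020). The Rps27 call was lost without RFP+CD160+ replicate 1 or 2 or RFP−CD160− replicate 3 (adjusted p from 0.058 to 0.081). Rpl7l1, a copy of Rpl7 that acts in ribosome assembly, had 15.5, 16.2 and 14.4 FPKM in RFP+CD160+ libraries, against 17.6, 16.4 and 16.3 FPKM in RFP−CD160− libraries. These did not overlap, yet the log2 difference of -0.12 was not called (limma adjusted p = 0.15), and it came to 0.031 when libraries were given the same total. Rpl7 averaged 249 ± 8.78 FPKM in RFP+CD160+ cells and 221 ± 10.8 FPKM in RFP−CD160− cells (SD, n = 3 each, log2 difference 0.17, limma adjusted p = 0.047). The Rpl7 call was lost without RFP+CD160+ replicate 1 or 2 or RFP−CD160− replicate 2 or 3 (adjusted p from 0.13 to 0.14). Rpl39l, a form best known from the testis, stood at 0.0804 to 0.331 FPKM in RFP+CD160+ cells, against 0.346 to 0.437 FPKM in RFP−CD160− cells, and was not tested.

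**Figure D3:**
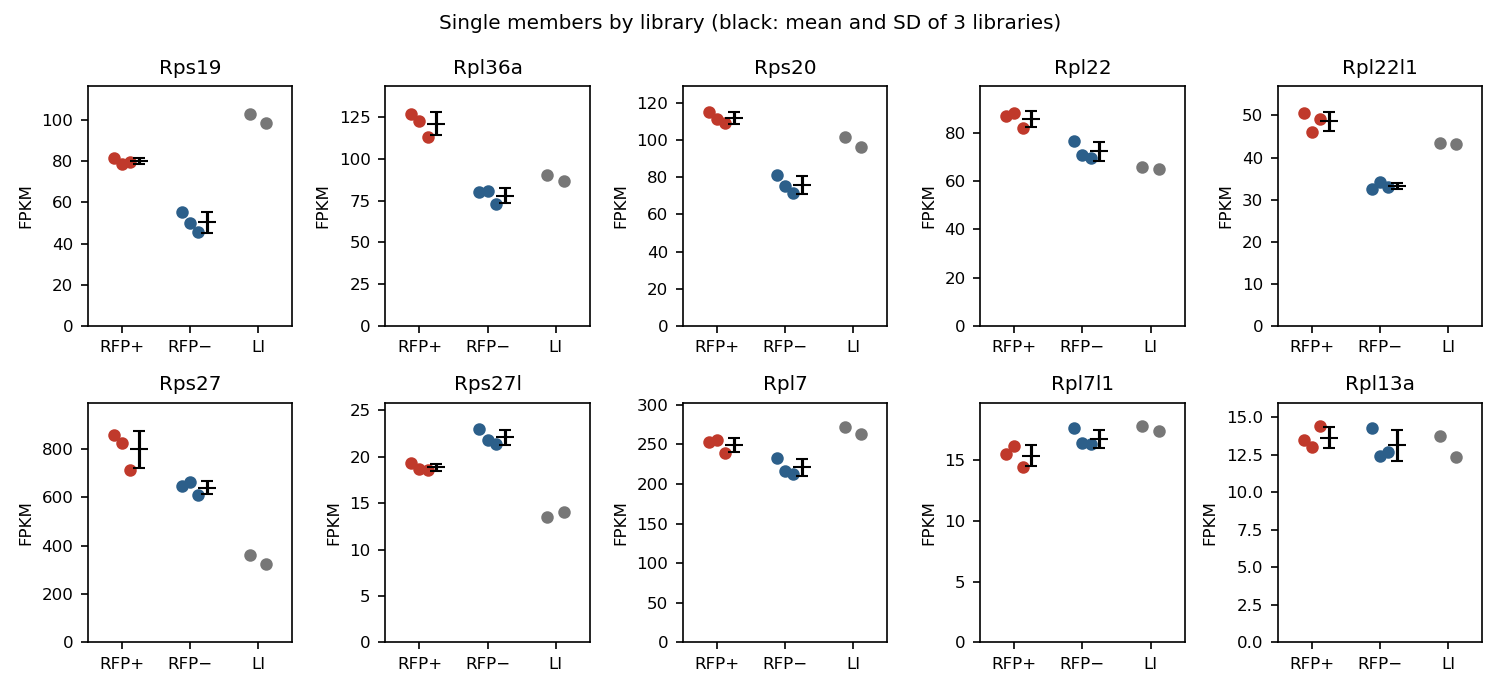
FPKM of 10 members by library (y axes linear from 0) in RFP+CD160+ (RFP+), RFP−CD160− (RFP−) and LI libraries, with 1 point per library and the mean and SD of 3 libraries in black for the 2 sorted groups. Rps19, Rpl36a, Rps20, Rpl22 and Rpl22l1 are higher in RFP+CD160+ cells without overlap, Rps27l is lower, and Rpl13a overlaps.

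Sequences around the transcription start are shown for members from both ends of this range, because the TOP stretch and the start's promoter motifs are what ribosomal protein genes are known to share. RefSeq (GRCm38.p6) held a window for 65 genes chosen by the same symbol rule, without a check that each is among the 89 members. Each line gives 25 bases before and 25 bases from the start, 5′ to 3′ on the gene's strand, with the longest run of C and T, or the first of equal ones, in capitals where it reached 8 bases. Rps19 (chr7:24884567-24884616, plus strand) and Rpl36a (chrX:134585629-134585678, plus strand) had the largest differences. Rpl22l1 (chr3:28805483-28805532, plus strand) is the like form that was higher. Rpl13a (chr7:45128721-45128770, minus strand) and Fau (chr19:6057922-6057971, plus strand) had small differences, and Rps27l (chr9:66946061-66946110, plus strand) was lower.
Rps19: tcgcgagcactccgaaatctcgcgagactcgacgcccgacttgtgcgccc
Rpl36a: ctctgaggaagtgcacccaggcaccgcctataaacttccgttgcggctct
Rpl22l1: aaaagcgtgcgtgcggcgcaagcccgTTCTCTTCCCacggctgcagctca
Rpl13a: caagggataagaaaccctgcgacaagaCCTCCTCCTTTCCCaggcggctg
Fau: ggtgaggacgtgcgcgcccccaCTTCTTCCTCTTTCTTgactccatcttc
Rps27l: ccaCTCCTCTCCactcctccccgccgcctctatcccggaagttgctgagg
The run in Fau, of 16 bases, crosses the start, and that of Rps27l lies before it and is followed by another run of the same length. Such a run was present in 32 of these 65 genes (49.2%), against 19.4% of all 27025 windows in the table. The count rests on a single RefSeq start per gene and on the rule of 8 bases. GENCODE places the outermost start of Rps19 at chr7:24884371, before its window. A window without a run therefore does not show that the mRNA lacks a TOP stretch. Searched on both strands of 250 bases before to 50 bases after the start, CCGGAAG, the core bound by ETS factors, was present in 25 of the 65 (38.5%), against 9.12% of all windows. AAGATGG, the core bound by YY1, was present in 10 (15.4%), against 6.47% of all windows. TCTCGCG, chosen after the windows had been read, was present in 13 (20%), against 2.72%. Members with and without the pyrimidine run had median log2 differences of 0.30 and 0.31 between the sorted cells, over 30 and 31 members tested there.

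Levels of single members spanned a wide range in the sorted cells. After Rplp1, the highest means over the 6 libraries were those of Rps3a1 (973 FPKM), Rpl36 (866 FPKM) and Rps15 (790.02 FPKM). Rpl36 lay above Rps15 in each of these 6 libraries, although their ranges over both groups overlapped (715 to 942 FPKM and 661 to 895 FPKM). The order by FPKM depends on annotated exon length, which was 499 bases for Rplp1, 383 for Rpl36 and 3170 for Rpsa. Rpsa had 14333 to 20436 reads per sorted library, against 15935 to 21329 for Rplp1 and 4758 to 6006 for Rpl36. The lowest were Rpl39l (0.283 FPKM), Rpl32l (0.750 FPKM), Rps10 (2.49 FPKM), Rpl24 (4.56 FPKM) and Rpl13a (13.4 FPKM). In the Bcl6 experiment Rplp1 again led, and Rpl39l, Rpl32l, Rps10, Rpl13a and Rpl24 again came last. Ribosomal protein genes have many near-identical pseudogene copies, and how reads that match several copies were counted is not given in the sources used here, so the level of a single member is uncertain. Whether that counting affects the fold differences of a member between groups was not tested.

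In the LI libraries, ribosomal protein genes held 11.3 and 11.1% of summed FPKM, and Gzma with Gzmb held 0.106 and 0.0988%. Of the 81 members, both LI libraries lay above every RFP−CD160− library for 54 and below every RFP−CD160− library for 10. Both lay above every RFP+CD160+ library for 30 and below every RFP+CD160+ library for 37. Neither these counts nor those by length below were made over all genes, so they do not show whether the members differ from other genes. The members divided by length. Of the 25 with a coding length under 400 bases, 2 in LI library 1 and 0 in LI library 2 lay above the RFP+CD160+ mean, with median log2 differences of -0.30 and -0.39. Of the 56 with 400 or more coding bases, 40 in library 1 and 33 in library 2 lay above it, with medians of 0.11 and 0.07. Rps27 had 363 and 326 FPKM in LI libraries, under the 713 to 858 FPKM of RFP+CD160+ and the 609 to 663 FPKM of RFP−CD160− libraries. Rps2 had 545 and 550 FPKM in LI libraries, above the 375 to 403 FPKM of RFP+CD160+ libraries. The 2 LI libraries had more reads than any sorted library, and the part of depth in this split was not tested.

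Other genes of protein synthesis were set beside the members. Among 44 translation factors and partners whose mRNAs mostly carry the same start motif, 17 were higher and 1 lower in RFP+CD160+ cells, with a median log2 difference of 0.12. Eef1g, a subunit of elongation factor 1, averaged 132 ± 2.35 FPKM in RFP+CD160+ cells and 81.3 ± 4.25 FPKM in RFP−CD160− cells (SD, n = 3 each, log2 difference 0.69, limma adjusted p = 4.2e-05). The RNA-binding protein gene Hnrnpa1 (log2 difference 0.48, limma adjusted p = 6.9e-04) and the helicase gene Eif4a1 (log2 difference 0.34, limma adjusted p = 0.0013) were higher as well.

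Genes of ribosome assembly and ribosomal RNA synthesis showed 33 higher and 0 lower of 53, with a median of 0.28. Myc, which switches on ribosome building, averaged 50.4 ± 7.16 FPKM in RFP+CD160+ cells and 14.1 ± 2.45 FPKM in RFP−CD160− cells (SD, n = 3 each, log2 difference 1.78, limma adjusted p = 4.0e-05). Gnl3, a nucleolar GTPase, and Taf1d, a subunit of the selectivity factor of RNA polymerase I, had log2 differences of 0.67 and 0.65 (limma adjusted p = 2.7e-04 and 4.1e-04). Mitochondrial ribosomal protein genes, which serve the separate ribosome inside mitochondria, showed 7 higher and 9 lower of 77, with a median of -0.06. That balance turned with the scale, to 22 higher and 3 lower when libraries were given the same total, and 12 higher and 4 lower with the members and granzymes left out of it. For translation factors the same total gave 33 higher and 0 lower. On those scales, calls over all genes were 3312 higher and 1164 lower of 9730 tested, and 2394 higher and 1481 lower of 9729. Mrpl38 and Mrpl23 were higher (log2 differences 0.59 and 0.52) and Mrpl41 was lower (-0.53), each with a limma adjusted p of 0.0011 to 0.0013. Of 12 genes encoded by mitochondrial DNA, 6 were higher and 0 lower, with a median of 0.30. These lists are described by their counts, and no difference between lists was tested.

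**Figure D4:**
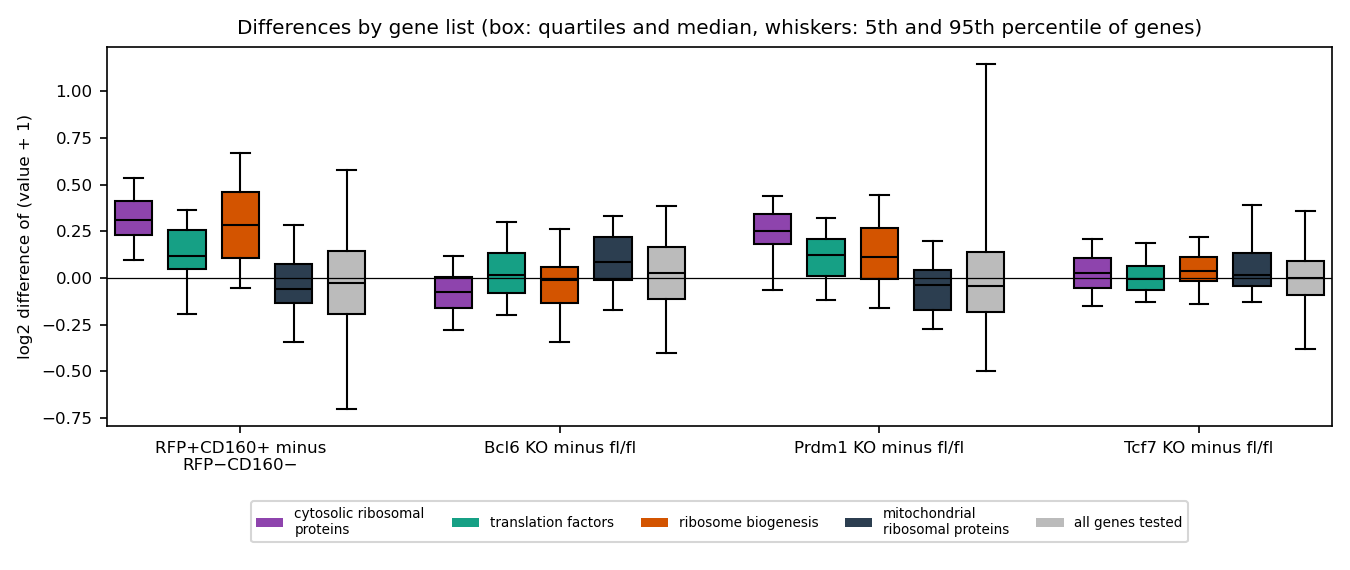
Log2 differences of (value + 1) by gene list in each comparison; boxes span the quartiles with a line at the median, and whiskers the 5th to 95th percentile of genes. In the sorted cells the cytosolic ribosomal protein genes centre on 0.31 and the mitochondrial ones on -0.06, and in the Tcf7 knockout all lists centre within 0.04 of 0.

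Of 6 genes of IEL identity tested in the sorted cells, 4 were lower and 0 higher in RFP+CD160+ cells, among them Itgae (log2 difference -0.68), Cd8a (-0.67) and Cd3g (-0.56). They summed to 1631 to 1751 FPKM in RFP+CD160+ libraries, against 2360.4 to 2439 FPKM in RFP−CD160− libraries. The 21 epithelial markers summed to 123 to 171 FPKM in RFP+CD160+ libraries, against 128 to 405 FPKM in RFP−CD160− libraries, with 1 called higher and 2 lower of 14 tested. Myeloid markers summed to 6.73 to 10.9 FPKM, against 8.28 to 11.5 FPKM (0 higher, 2 lower of 4 tested), and markers of CD4 and CD8αβ T cells to 18.0 to 31.8 FPKM, against 27.9 to 55.3 FPKM (0 called of 2 tested). The part of any of these lists in the difference of the ribosomal protein genes was not tested.

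In the Bcl6 knockout, no ribosomal protein gene was called by limma. This was 0 of 82 members tested, where 0.418% of all genes were called (0.0313% higher and 0.387% lower), and 0 members also at an unadjusted p under 0.05, where 2.39% of all genes were higher and 3.45% lower. The log2 difference was positive for 22 members and negative for 60, where 55.4% of all genes were positive, with a median of -0.08, against 0.03 over all genes. The median was -0.31 without knockout replicate 1 and 0.17 without knockout replicate 2. The groups did not overlap for 7 members, 2 higher and 5 lower, where 19% and 14% of all genes did so.

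The knockout libraries lay on either side of the littermates. The members held 4.33 and 3.07% of summed FPKM in knockout libraries, against 3.87 and 3.99% in littermates. Knockout library 2 was below knockout library 1 for 76 of 82 members, with a median log2 difference of -0.49, while the littermate libraries differed by a median of -0.03 and all genes between the knockout libraries by -0.04. The gap between the knockout libraries was larger for short members, at a median of -0.81 for the 25 with fewer than 400 coding bases and -0.41 for the 56 longer ones. Transcripts of mitochondrial DNA moved the other way, at 1.504 and 2.76% of summed FPKM in knockout libraries, against 1.92 and 1.56% in littermates. Myeloid markers summed to 52.7 to 141 FPKM in knockouts, against 39.4 to 53.9 FPKM in littermates (0 called of 7 tested). Of these, Lyz2 had 6.71 and 22.7 FPKM in knockouts, against 4.59 and 6.08 FPKM in littermates. Itgae had 551 and 390 FPKM in knockouts, against 472 and 525 FPKM, and Cd3e 205 and 216 FPKM, against 193 and 213 FPKM. The part of transcript length, of mitochondrial transcripts or of these markers in the gap between the knockout libraries was not tested.

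Rplp0 had 742 and 474 FPKM in Bcl6 knockout libraries, against 619 and 704 FPKM in littermates. Rps19 had 97.7 and 60.6 FPKM in knockouts, against 79.6 and 83.8 FPKM in littermates. Rps29, a short zinc-binding protein gene named after its values were seen, had 254 and 90.6 FPKM in knockouts, against 164 and 177 FPKM in littermates. In each, the first knockout library was the highest of the 4 and the second the lowest. Rpl5 was an exception, at 52.3 and 49.8 FPKM in knockouts, against 51.1 and 48.5 FPKM in littermates. The largest negative log2 difference was that of Rpl39 (-0.40, limma adjusted p = 0.95), with 24.96 and 10.5 FPKM in knockouts, against 22.0 and 21.6 FPKM in littermates, and the largest positive one that of Rpl35 (0.21, adjusted p = 0.95). Rpl22l1 had 18.6 and 26.1 FPKM in knockouts, against 30.9 and 21.2 FPKM in littermates, and Rps27l had 47.5 and 57.2 FPKM in knockouts, against 50.4 and 41.8 FPKM in littermates, both overlapping. Calls turned on which knockout library was left out. They are not counted here, because such fits assume the lone knockout library to vary like the littermates. Rpl38 and Rps21, named after their values were seen, had 125 and 62.2 FPKM, and 46.9 and 24.4 FPKM, in knockouts. In littermates they had 78.0 and 88.7 FPKM, and 30.1 and 32.8 FPKM. Of the other lists, 0 of 44 translation factors, 0 of 53 ribosome assembly genes and 0 of 77 mitochondrial ribosomal protein genes were called. Epithelial markers summed to 310.2 to 362 FPKM in knockouts, against 447 to 483 FPKM in littermates, with 3 of 20 tested called lower (Defa24, Lyz1 and Itln1) and 0 higher, and their part in the members' values was not tested.

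**Figure D5:**
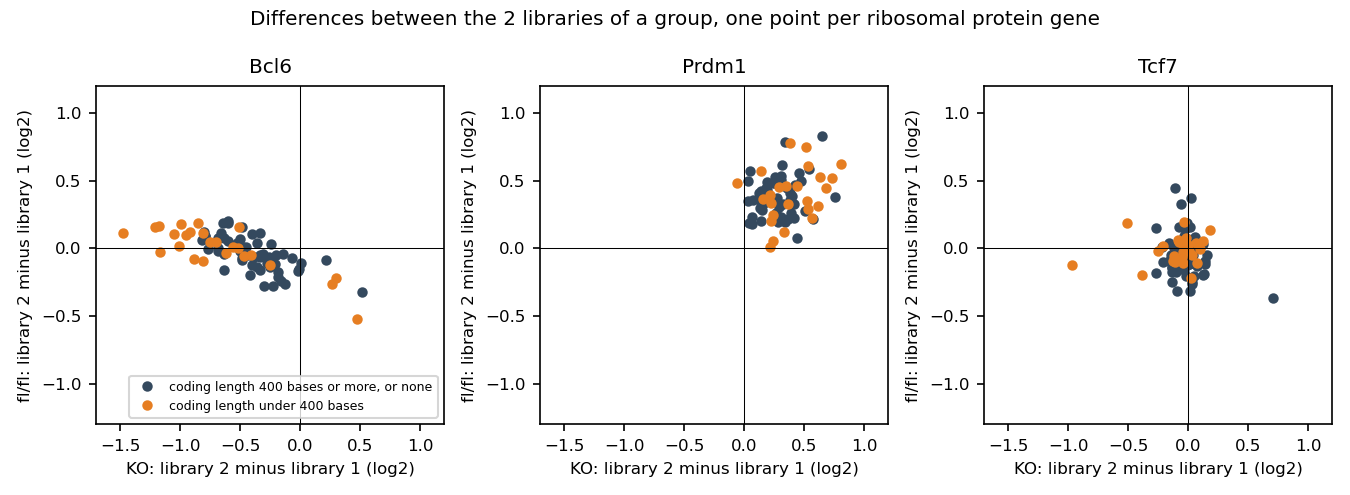
Log2 difference between library 2 and library 1 of the knockout (x axis) and of the littermates (y axis), with 1 point per ribosomal protein gene and orange for coding lengths under 400 bases. In the Bcl6 experiment 76 of 82 points lie left of 0 (median -0.49), and the points centre near 0 for the littermates (-0.03). In the Prdm1 experiment both libraries 2 are higher (medians 0.29 and 0.36), and in the Tcf7 experiment both medians are near 0 (-0.04 and -0.06).

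In the Prdm1 knockout, most ribosomal protein genes had higher means than in littermates, but none was called. Limma called 0 of 82 members, where 6.84% of all genes were called, 4.29% higher and 2.54% lower. At an unadjusted p under 0.05, 6 members were higher and 0 lower, where 10.7% and 9.87% of all genes were. The log2 difference was positive for 77 members, where 42.5% of all genes were positive, with a median of 0.25 against -0.04 over all genes. The median moved to 0.42 without knockout replicate 1, 0.10 without knockout replicate 2, 0.049 without littermate replicate 1 and 0.45 without littermate replicate 2. Knockout and littermate libraries did not overlap for 24 members, all higher in the knockout, where 21.8% of all genes were higher and 30.6% lower without overlap. A count test, edgeR's quasi-likelihood test on the recovered reads, also called 0 members. With the replicate number as a block, limma called 20 members higher and 0 lower, and 1210 higher and 1176 lower over all genes. The labels do not say what a number shares.

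The largest log2 differences at or above 250 scaled reads were those of Rps28, Rps20, Rpl3, Rpl10a, Rpl39 and Rpl23a. Rps28, a protein of the mRNA exit channel, had 317 and 455 scaled reads in knockout libraries, against 210.001 and 267 in littermates (log2 difference 0.68 ± 0.24 SE, limma adjusted p = 0.16). Rps20 had 1349 and 1652 scaled reads in knockouts, against 908 and 1243 in littermates (log2 difference 0.49 ± 0.18 SE, limma adjusted p = 0.18). Rpl10a, a protein of the L1 stalk, had 1857 and 2055 scaled reads in knockouts, against 1307 and 1586 in littermates (log2 difference 0.44 ± 0.13 SE), the smallest adjusted p of any member at 0.11. Rps28, Rps20 and Rpl10a did not overlap between groups, but none of them passed. Negative differences were small, with Rpl38 at -0.19, Rpl7l1 at -0.11, Rps23 at -0.09 and Rpl12 at -0.07, all with overlapping groups. Rps27l, below the level used for that ranking, was at 43.4 and 76.9 scaled reads in knockouts, against 51.7 and 80.2 in littermates (-0.15). Rpl36a averaged 135 ± 40.5 scaled reads in knockouts and 101 ± 15.7 in littermates (SD, n = 2 each), and its groups overlapped.

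The libraries within each Prdm1 group were themselves spread. Library 2 was above library 1 for all but 1 of 82 members in the knockouts (median log2 difference 0.29) and for all 82 in the littermates (0.36). Over all genes the medians were -0.015 and -0.005. As a share of summed scaled reads, the members held 0.414 and 0.520% in knockouts, against 0.319 and 0.438% in littermates, which overlapped. Divided by exon length, the shares were 1.26 and 1.55% in knockouts, against 0.942 and 1.23% in littermates, without overlap. The sorted cells had 8.00 to 11.9% of FPKM. The pseudogene Rpl32l had 1609 and 1827 scaled reads in knockouts, where Rpl32 had 742 and 930. Reads lost to other copies were not tested. These shares do not give the part of ribosomal protein mRNA in the cells, and the calls cover only the reads counted here. Without littermate replicate 2, the members' median log2 difference was 0.45. That fit assumes the lone littermate library to vary like the knockouts, so its calls are not counted here. Epithelial markers moved with the genotype, as 11 of 21 were higher and 0 lower, with summed scaled reads of 24490.1 to 35453 in knockouts, against 17343 to 17711 in littermates. All 21 passed the filter. Gzma and Gzmb together had 16521 to 33849 scaled reads in knockouts, against 445702 to 453243 in littermates. The part of either in the members' values was not tested. Of the other lists, Myc was the only ribosome assembly gene called, at 5690.3 and 5472 scaled reads in knockouts, against 2850.02 and 3669 in littermates (log2 difference 0.79, limma adjusted p = 0.020). Of translation factors, 0 of 44 were called, and of mitochondrial ribosomal protein genes, 0 of 76.

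In the Tcf7 knockout, ribosomal protein genes centred on no difference. Limma called 0 of 87 members, where 2.72% of all genes were called (1.49% higher and 1.23% lower), and 2 were higher and 2 lower at an unadjusted p under 0.05, where 6.18% and 6.37% of all genes were. The median log2 difference was 0.03, against 0.00 over all genes, with 51 members positive and 36 negative, where 50.5% of all genes were positive. The groups did not overlap for 27 members higher and 13 lower, where 20.9% and 20.7% of all genes did so. The members held 0.467 and 0.440% of summed scaled reads in knockouts, against 0.486 and 0.459% in littermates, and the libraries of a group differed by a median of -0.04 in knockouts and -0.06 in littermates. These shares include the 6 pseudogene members, whose median log2 difference was -0.09 (1 positive, 5 negative). The 78 standard genes had 47 positive and 31 negative. Rplp0 had 4583 and 4274 scaled reads in knockouts, against 4824 and 4294 in littermates, and Rps6 had 2412 and 2384 in knockouts, against 2423 and 2419 in littermates.

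Among members at or above 250 scaled reads, Rps26 had the largest positive log2 difference (0.29) and Rps19 the largest negative one (-0.27). Rps26 had 408 and 379 scaled reads in knockouts, against 333 and 310.3 in littermates (limma adjusted p = 0.47), and Rps19 had 303 and 252 in knockouts, against 354 and 312 in littermates (adjusted p = 0.59). Rpl36a, below that level and named after its values were seen, had 168 and 154 scaled reads in knockouts, against 109 and 103 in littermates (log2 difference 0.60 ± 0.24 SE, limma adjusted p = 0.29). Its groups did not overlap, though the difference did not pass. Rpl22l1 had 454 and 438 scaled reads in knockouts, against 437 and 418 in littermates, and the ratio of Rpl22l1 to Rpl22 was 0.263 and 0.262 in knockouts, against 0.254 and 0.238 in littermates. That log2 ratio differed from littermates by -0.02 in the Bcl6, -0.02 in the Prdm1 and 0.10 in the Tcf7 knockout, and 2 against 2 libraries allow no p below 0.333 in an exact permutation test. Rpl8 and Rps3a2, named after their values were seen, had log2 differences of -0.11 and -0.12 and were not called (limma adjusted p = 0.465 and 0.455).

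The Tcf7 table also listed copies typed as pseudogenes, whose counts cannot be told apart with confidence from those of their parents. Rps3a2 had 29991 and 27346 scaled reads in knockouts, against 33173 and 29331 in littermates, where the protein-coding Rps3a1 had 1393 and 1431 in knockouts, against 1317 and 1272 in littermates. Rps12l1 had 4731 and 4245 scaled reads in knockouts, against 5075 and 4764 in littermates, where Rps12 had 771 and 796 in knockouts, against 873 and 756 in littermates. Rps4l, a copy of Rps4x, had 83.6 and 137 in knockouts, against 79.9 and 61.8 in littermates, and Rpl3l, a muscle form of Rpl3, had at most 11.0 in any library. Of translation factors, 1 of 44 was called, Eif1, which picks the start codon (4669 ± 142 scaled reads in knockouts and 3718 ± 121 in littermates, SD, n = 2 each, log2 difference 0.33, limma adjusted p = 0.0065). No gene was called among 53 of ribosome assembly, 77 of mitochondrial ribosomal proteins or 14 hosts of small nucleolar RNAs tested. Epithelial markers showed 6 higher and 2 lower of 21, with summed scaled reads of 38656 to 39627 in knockouts, against 32082 to 32546 in littermates. Markers of CD4 and CD8αβ T cells summed to 3210 to 3264, against 1705 to 2039 (3 higher, 0 lower of 6 tested). Myeloid markers summed to 8669 to 8859, against 5711 to 5943 (1 higher, 0 lower of 6). Stromal and erythroid markers showed 2 higher and 0 lower of 7, and IEL identity genes 0 called of 6. The part of any of these lists in the members' values was not tested.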

How the data were processed

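Bulk RNA-seq of sorted IELs was analysed from 20 deposited tables, 1 per library. Per the labels' protocols, total RNA was taken with MagZol and libraries were made by either of 2 providers, not named per library. Sorted libraries titled P and N were taken as RFP+CD160+ and RFP−CD160−, the 2 sorted groups of the design text. The submitters' processing notes name DESeq2, RSEM, featureCounts, Subread, Bowtie2, Trim Galore 0.4.4 and mm10, without roles. Values of the sorted, LI and Bcl6 libraries were deposited by the authors as FPKM. Values of the Prdm1 and Tcf7 libraries were deposited under the name FPKM, but hold a signal of reads divided by 1 size factor per library, since 100% of them were whole multiples of 1 step per library, within 0.01 of a read. Among FPKM values, 96.4 to 97.4% of the low ones checked were whole reads at the gene's exon length (tolerance 0.02), which gave the depths.

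For every comparison, limma 3.58.1 under R 4.3.3 was run on that experiment's libraries only, on log2(value + 1) with an eBayes trend. A gene entered when it reached 1 FPKM or a signal of 50 in 3 libraries of the sorted cells or 2 of a knockout experiment. Tests were two-sided, without covariates, with Benjamini-Hochberg adjustment over all genes tested and a threshold of 0.05. Genes tested were 9717 of 12975 in the sorted cells, 9573 of 13766 in the Bcl6, 10969 of 13624 in the Prdm1 and 15210 of 25036 in the Tcf7 experiment. A pseudocount of 1 understates changes of low genes. In the Prdm1 experiment, edgeR 4.0.16 was run on the recovered reads as an alternative. The script was tested on simulated data.

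Members named were 23 fixed genes where listed, the 6 largest positive and negative differences per comparison among genes averaging 5 FPKM or a signal of 250 and above, called members against the majority, the 5 highest and lowest by FPKM, and up to 3 called genes of each other list by smallest p. Exceptions are marked, and some genes under this rule are not reported here. The members and lists were chosen with earlier results of these data known. Same-numbered libraries did not deviate together in the sorted cells (correlation of deviations -0.23, 0.00 and -0.33), and the 2 pairs of a knockout cannot show pairing, so numbers were not used as a block. Between other numbers, RFP+CD160+ 1 with RFP−CD160− 2, 2 with 3 and 3 with 1 had positive correlations (0.36, 0.43 and 0.49). The rest were negative (-0.08, -0.30 and -0.31). A block of that kind was not fitted in the sorted cells, so shared structure there was not tested. Alternatives covered scaling, pseudocount, filter, trend, block and leaving out each library.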

Additional observations from a re-analysis of the deposited data

How the results depend on the processing

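With all libraries given the same total, and again with the members, Gzma and Gzmb left out of that total, the members' median log2 difference between RFP+CD160+ and RFP−CD160− cells came to 0.47 and 0.40, against 0.31 as deposited, and the members called were 78 higher and 0 lower, and 74 higher and 0 lower. Over all genes the calls were then 3312 higher and 1164 lower, and 2394 higher and 1481 lower, and under quantile normalization 2024 higher and 1744 lower. Leaving Gzma and Gzmb out of the total put the difference in share at 2.60 percentage points. Rpl7l1 turned to 0.031 at the same total. Without each sorted library in turn, 47 to 71 members were higher and 1 lower. In the Prdm1 experiment, Rpl12 turned to 0.0074 at the same total and 0.011 under quantile normalization.

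With the replicate number as a block, members called came to 56 higher and 1 lower in the sorted cells, 0 in the Bcl6 knockout, 20 higher and 0 lower in the Prdm1 knockout, and 0 higher and 3 lower in the Tcf7 knockout. Same-numbered libraries had correlations of deviations of -0.46 (Bcl6), 0.53 (Prdm1) and 0.06 (Tcf7), and the labels do not say what a number shares. Crossed numbers in the Bcl6 experiment, tried after seeing the data, called 0 members and 180 genes higher and 272 lower over all genes, against 3 and 37 without a block. Over all genes, the block gave 1210 higher and 1176 lower calls in the Prdm1 experiment (471 and 279 without it) and 495 and 482 in the Tcf7 experiment (226 and 187 without it, and 6 and 3 with eBayes lacking a trend).

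Leaving out 1 library at a time gave 0 to 3 members higher and 0 to 30 lower in the Bcl6, 0 to 15 higher in the Prdm1 and 0 to 2 lower in the Tcf7 experiment. The members' median ranged from -0.31 to 0.17 (Bcl6), 0.049 to 0.45 (Prdm1) and -0.011 to 0.056 (Tcf7), and the Bcl6 difference in share from -0.86 to 0.396 percentage points. Log2 differences of members that changed sign ranged, for Bcl6, from -0.98 to 0.19 (Rpl39), -0.58 to 0.054 (Rpl8), -0.76 to 0.20 (Rplp2), -0.61 to 0.044 (Rps2) and -0.38 to 0.34 (ratio of Rpl22l1 to Rpl22). For Prdm1 they ranged from -0.16 to 0.024 (Rpl12), -0.42 to 0.040 (Rpl38), -0.25 to 0.077 (Rps23) and -0.11 to 0.069 (the same ratio), and for Tcf7 from -0.36 to 0.027 (Rpl36). The cause was not tested. A count test of the Tcf7 experiment was not run.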
